A study of Mus musculus with 3 samples.

Results

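The mRNAs of 10 transcription factors of pluripotent cells, Pou5f1, Nanog, Sox2, Klf2, Klf4, Klf5, Esrrb, Zfp42, Tfcp2l1 and Tbx3, were followed through 3 RNA pull-down libraries from mouse ES cells. They were chosen by gene symbol, and all 10 had counts in all 3 libraries, out of 26887 gene names with a count in any library. Undifferentiated E14 ES cells of the 129/Ola strain, grown without feeder cells in serum and LIF, were fixed with glutaraldehyde, lysed and sonicated, and the lysate was hybridized with antisense oligonucleotides against 1 RNA. This assay, RIA-seq, recovers the target together with RNAs fixed close to it. The control was a pull-down of Actb mRNA, which codes for β-actin (Actb RIA-seq), and the other libraries came from pull-downs of the nuclear long noncoding RNA Malat1 (Malat1 RIA-seq) and of Tfrc, the mRNA of the transferrin receptor (Tfrc RIA-seq). All 3 came from the same line, strain and culture conditions. Each condition had 1 library, so no spread between replicates could be measured, and an interval at the 95% level covers counting error only. An RNA that is more abundant in the lysate and an RNA that is recovered better from it cannot be told apart with these libraries.

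Mouse ES cells keep the ability to form all embryonic lineages through a network of transcription factors that bind one another's genes. Pou5f1 (Oct4) and Sox2 bind DNA side by side and form its core. Nanog, Esrrb, Klf2, Klf4, Klf5, Tfcp2l1 and Tbx3 hold cells in the naive state, several of them as targets of LIF and STAT3 signalling, and Zfp42 (Rex1) is a widely used marker of that state. Nanog and Zfp42 are known to vary in level from cell to cell in serum cultures.

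The factor that stood apart was Nanog. It held 773, 422 and 1105 counts per 1000000 counts of the library (CPM) in the Actb, Malat1 and Tfrc libraries. It was thus the most counted of the 10 factors in the Actb and Tfrc libraries and the fourth, after Pou5f1, Tfcp2l1 and Esrrb, in the Malat1 library. Pou5f1 ran the other way in Malat1 RIA-seq, with 372, 792 and 438 CPM in the same order. The number of Nanog counts per Pou5f1 count, which does not depend on how libraries are scaled, was 2.08 (1.998 to 2.16) in the Actb library, 0.533 (0.514 to 0.553) in the Malat1 library and 2.52 (2.45 to 2.60) in the Tfrc library. The Malat1 library therefore lay on the other side of 1 from both other libraries, with intervals far from overlapping. Per Pou5f1 count, the other factors except Sox2 were also lower in the Malat1 than in the Actb library, though the interval of Esrrb (0.592 to 0.636) overlapped that of the control (0.590 to 0.653). Zfp42 had 1.08, 0.468 and 1.30 counts per Pou5f1 count in the Actb, Malat1 and Tfrc libraries, and Klf4 had 0.424, 0.225 and 0.487. Sox2 had 0.338, 0.376 and 0.563.

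Because counts can be misplaced between near-identical sequences, the exons of each factor were compared with the genome, build NCBIM37 (mm9). Loci outside the gene that align over at least 500 nt at 80% identity or more numbered 15, for 6 of the 10 factors, and Sox2, Klf2, Tfcp2l1 and Tbx3 had none. The annotation placed a gene at 1 of the 15 loci, the pseudogene Gm14663 at the Esrrb copy on chromosome X, and that gene had no counts. The closest copy of Nanog, on chromosome X from 87127651 to 87128972, matched over 1325 nt at 97.4% identity, with a longest identical run of 109 nt. A copy of Zfp42 on chromosome 15 matched over 826 nt at 93.3% identity from 93509043 to 93509856, and at 97.7% in a neighbouring aligned segment, from which the Zfp42 stretch below was taken. The stretches below lie in coding exons, are shown because they are the 30 bases that differ most from the copy in the alignment of highest identity, and run 5′ to 3′ on the strand of the gene, with differing bases in capitals.
Nanog, chr6:122663359-122663388, plus strand: ctcagtcctggaacGgccagccttggaaTG
Nanog copy, chrX:87128911-87128940, minus strand: ctcagtcctggaacAgccagccttggaaCA
Zfp42, chr8:44381747-44381776, minus strand: caaagacaagtggCcagaaagggccgggcG
Zfp42 copy, chr15:93510011-93510040, minus strand: caaagacaagtggTcagaaagggccgggcA
The Nanog stretches differed at 3 of 30 bases and the Zfp42 stretches at 2 of 30. How the counting placed reads that match both a gene and a copy is not given in the sources used here. The counts of Nanog, Zfp42, Pou5f1, Klf4, Klf5 and Esrrb carry this uncertainty. Loci with shorter matches were left out by the minimum of 500 nt, so Sox2, Klf2, Tfcp2l1 and Tbx3 are not shown to be free of it. In 5 of the 45 pairs of factors, exons of a factor aligned over at least 100 nt with the gene of the other.

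The libraries summed to 10405209, 10078439 and 14553941 counts for Actb, Malat1 and Tfrc RIA-seq, so that 3 counts, taken as the floor, stood for 0.206 to 0.298 CPM. The targeted RNAs were at their highest in their own library, with 73038 CPM for Actb, 10657 for Malat1 and 117 for Tfrc. Tfrc, however, was also at 101 in the Malat1 library, against 43.5 in the control. Malat1 was likewise at 7041 in the Tfrc library, against 1834 in the control. The 10 genes with the most counts over the 3 libraries took 52.0%, 23.2% and 32.6% of the Actb, Malat1 and Tfrc libraries, which lowers the share of the other genes most in the control. The median gene had a fold of 1.82 in Malat1 over Actb RIA-seq and of 1.56 in Tfrc over Actb RIA-seq, or 0.86 and 0.64 on the log2 scale. Each fold below is a ratio of shares of the library total, without a pseudocount, and is followed where needed by its value relative to the median gene.

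The 10 factors together held 2937, 3869 and 4042 CPM in the Actb, Malat1 and Tfrc libraries. The summed fold was 1.32 (1.30 to 1.34) in Malat1 over Actb RIA-seq and 1.38 (1.36 to 1.40) in Tfrc over Actb RIA-seq. Both are below the median gene, at 0.724 and 0.883 of its fold. This place depended on the genes and counts used. In Tfrc over Actb RIA-seq the median fold of genes with 500 counts or more in every library was 1.28, under the summed fold. With Ensembl-ID counts alone the summed fold of that comparison was 1.02 of that of the median gene for such counts. In Malat1 over Actb RIA-seq it was 0.817. With Genome counts alone both summed folds were above the median gene for such counts, at 1.23 of its fold in Malat1 over Actb RIA-seq and 1.055 in Tfrc over Actb RIA-seq. With the 10 most counted genes left out of the library totals, the factors held 6118, 5038 and 5996 CPM, so both folds were then under 1, at 0.824 and 0.980. Without Nanog, which holds the most counts, the summed fold in Malat1 over Actb RIA-seq was 1.59. That was under the 1.82 of the median gene but above the median of 1.53 over genes with 500 counts or more in every library.

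**Figure D1:**
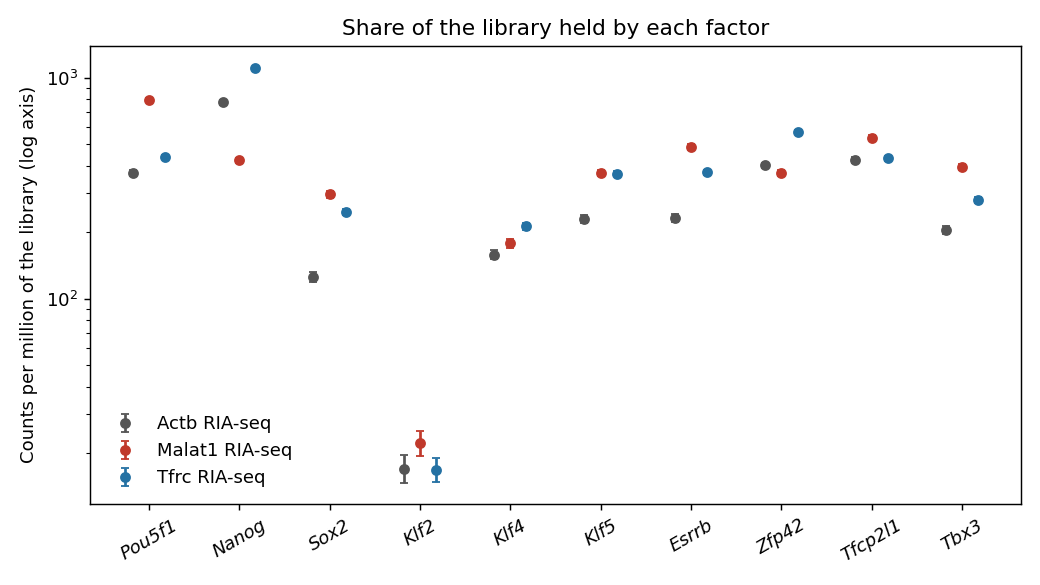
Counts per 1000000 counts of the library (CPM, log axis) for each of the 10 factors in the 3 libraries, with 95% Wilson intervals, which cover counting error only. Nanog and Zfp42 are lowest in Malat1 RIA-seq and highest in Tfrc RIA-seq, and Klf2 lies near 20 CPM in all 3.

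The core pair was higher than the control by similar factors in Malat1 RIA-seq and by less similar ones in Tfrc RIA-seq, and the intervals of Pou5f1 and Sox2 did not overlap in either. Pou5f1 (ENSMUSG00000024406), a POU-domain factor, spans positions 35642982 to 35647721 of chromosome 17 (plus strand) and has 6 merged exons. Its counts were 3875 (Actb), 7983 (Malat1) and 6368 (Tfrc). The fold was 2.13 (2.05 to 2.21) in Malat1 over Actb RIA-seq and 1.17 (1.13 to 1.22) in Tfrc over Actb RIA-seq, or 1.17 and 0.754 relative to the median gene. Pou5f1 was thus above the median gene in the first comparison and below it in the second. Sox2 (ENSMUSG00000074637), an HMG-box factor, is a gene of 1 exon (chromosome 3, positions 34548927 to 34551383, plus strand) and lies inside Sox2ot, a long noncoding RNA gene transcribed from the same strand. Its counts in the Actb, Malat1 and Tfrc libraries were 1309, 2998 and 3587, or 126, 297 and 246 CPM. Sox2 had the highest fold of the 10 factors in both comparisons, 2.36 (2.22 to 2.52) and 1.96 (1.84 to 2.09), and was above the median gene in both, at 1.30 and 1.26. Sox2ot had Ensembl-ID counts of 8, 60 and 61 and Genome counts of 90, 356 and 449 in the 3 libraries. The overlap was judged by the spans of the genes, and whether any exon is shared was not examined. How reads in the shared span were assigned is not given in the sources used here, so the part of Sox2ot in the Sox2 counts was not tested.

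Nanog and Zfp42 were the factors with a lower share in Malat1 than in Actb RIA-seq, also with Ensembl-ID counts alone, but not with Genome counts alone. The 3 other scalings lower every fold of this comparison, so both could only stay below 1, and other factors joined them. Nanog (ENSMUSG00000012396), a homeodomain factor, spans positions 122657507 to 122664651 of chromosome 6 (plus strand) and has 5 merged exons. Its counts were 8043 (Actb), 4257 (Malat1) and 16082 (Tfrc). The fold of 0.546 (0.527 to 0.567) in Malat1 over Actb RIA-seq was 0.300 of that of the median gene, and 1.31% of 14572 genes had a lower one. Its fold in Tfrc over Actb RIA-seq was 1.43 (1.39 to 1.47), which is 0.917 of the median gene and higher than that of 41.9% of genes. Zfp42 (ENSMUSG00000051176), a zinc finger protein, spans positions 44380422 to 44392363 of chromosome 8 (minus strand) and has 4 merged exons. Its counts in the Actb, Malat1 and Tfrc libraries were 4171, 3739 and 8305, or 401, 371 and 571 CPM. Its fold was 0.926 (0.886 to 0.967) in Malat1 over Actb RIA-seq, 0.509 of the median gene, with 8.58% of genes lower. The Tfrc over Actb fold was 1.42 (1.37 to 1.48), 0.913 of the median gene. Nanog and Zfp42 were therefore near the median gene in one comparison and far under it in the other, and both comparisons use the same Actb library.

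The 3 KLF zinc finger factors, which share a family of DNA-binding domains and can stand in for one another in ES cells, spread from 1.13 to 1.61 in Malat1 over Actb RIA-seq. Klf4 (ENSMUSG00000003032), which spans positions 55540013 to 55545347 of chromosome 4 (minus strand) and has 5 merged exons, had 1644, 1796 and 3098 counts in Actb, Malat1 and Tfrc RIA-seq. The folds of 1.13 (1.05 to 1.21) and 1.35 (1.27 to 1.43) were 0.620 and 0.864 of the median gene. Klf5 (ENSMUSG00000005148), which spans positions 99697910 to 99712624 of chromosome 14 (plus strand) and has 4 merged exons, had 2385, 3729 and 5358 counts. Its fold was 1.61 in both comparisons (1.53 to 1.70 and 1.53 to 1.69), 0.887 and 1.03 of the median gene. Klf2 (ENSMUSG00000055148), which spans positions 74842932 to 74845555 of chromosome 8 (plus strand) and has 3 merged exons, was by far the least counted factor, with 177, 223 and 245 counts. The intervals of its folds, 1.30 (1.07 to 1.58) and 0.990 (0.816 to 1.20), are accordingly the widest. Klf2 fell outside the group of 9 factors that had at least 500 counts in each library.

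By the library total, Esrrb, Tfcp2l1 and Tbx3 had higher shares in Malat1 RIA-seq than in either other library, though Tfcp2l1 was under its Actb share once scaled by the median gene (0.694). Esrrb (ENSMUSG00000021255), an orphan nuclear receptor, has the longest gene of the 10, with 10 merged exons over positions 87702067 to 87862578 of chromosome 12 (plus strand). Its 2406, 4899 and 5430 counts in Actb, Malat1 and Tfrc RIA-seq gave folds of 2.10 (2.002 to 2.21) and 1.61 (1.54 to 1.69), 1.16 and 1.03 of the median gene. Its Ensembl-ID counts alone gave 1.17 (1.096 to 1.24) and 1.08, or 0.825 and 0.853 of the median gene for such counts, and its Genome counts gave 5.26 and 3.42. The place of Esrrb above the median gene therefore rests on its Genome counts. Tfcp2l1 (ENSMUSG00000026380), a CP2-family factor downstream of LIF, spans positions 120524522 to 120581744 of chromosome 1 (plus strand) and has 15 merged exons. Its 4413, 5399 and 6280 counts gave folds of 1.26 (1.21 to 1.31) and 1.02 (0.979 to 1.06), 0.694 and 0.653 of the median gene, so that it was under the median gene in both. Within its span lie genes named U1 (positions 120578398 to 120578527, same strand) and 5S_rRNA (120534865 to 120534981, other strand). Their part in the Tfcp2l1 counts was not tested. Tbx3 (ENSMUSG00000018604), a T-box factor, spans positions 120120678 to 120134733 of chromosome 5 (plus strand) and has 9 merged exons. Its 2138, 3969 and 4071 counts gave folds of 1.92 (1.82 to 2.02) and 1.36 (1.29 to 1.43), 1.05 and 0.873 of the median gene. The antisense gene Gm2301, at positions 120061272 to 120121374, overlaps only the start of Tbx3. Listed under its own name, it had Genome counts of 65, 210 and 237 in the 3 libraries. Counts from the overlap alone cannot be told apart from Tbx3 counts if strand was not used.

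Counted over the factors, the comparison of Malat1 with Actb RIA-seq gave 3 of 10 at a fold of 2 or more (Pou5f1, Sox2 and Esrrb), against 42.1% of all 14572 genes tested, and 0 of 10 at 0.5 or less, against 0.954%. With Ensembl-ID counts alone it was 2 of 10, without Esrrb, against 24.0% of genes. Chi-square tests (two-sided) that set the counts of a gene against the rest of the library, adjusted over all genes, had 8 factors higher and 2 lower at 0.05, beside 73.9% and 4.45% of all genes. That test compares the reads of these 2 libraries, not the conditions. Scaled by the median gene, 0 of 10 factors reached a fold of 2, as 7.38% of all genes did, and 6 of 10 were below 1 (Nanog, Zfp42, Klf2, Klf4, Klf5 and Tfcp2l1), where by definition as many genes lie below as above. Of the 10, Nanog was the only one at 0.5 or less of the fold of the median gene, as were 8.21% of all genes. The median of the 10 folds was 1.46, beside 1.82 over all genes. Over the 2127 genes that had 500 counts or more in every library, the median fold was 1.53, and 4 of 9 factors were under it.

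In Tfrc over Actb RIA-seq, 0 of 10 factors had a fold of 2 or more, against 28.6% of the 14691 genes tested, and 0 had 0.5 or less, against 0.388%. The chi-square test had 8 factors higher and 0 lower, with 68% and 3.66% of all genes, and the adjusted p-values of Klf2 and Tfcp2l1, 0.931 and 0.434, missed the threshold. Relative to the median gene, Sox2, Klf5 and Esrrb were above 1 and the other 7 factors below it. Over the 2127 genes that had 500 counts or more in every library, the median fold was 1.28, and 2 of 9 factors were under it. With Ensembl-ID counts alone, 6 of 10 factors were above the median gene for such counts. The median of the 10 folds was 1.39, beside 1.56 over all genes. The folds of the 10 factors spread over 0.546 to 2.36 in the first comparison and over 0.990 to 1.96 in the second.

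**Figure D2:**
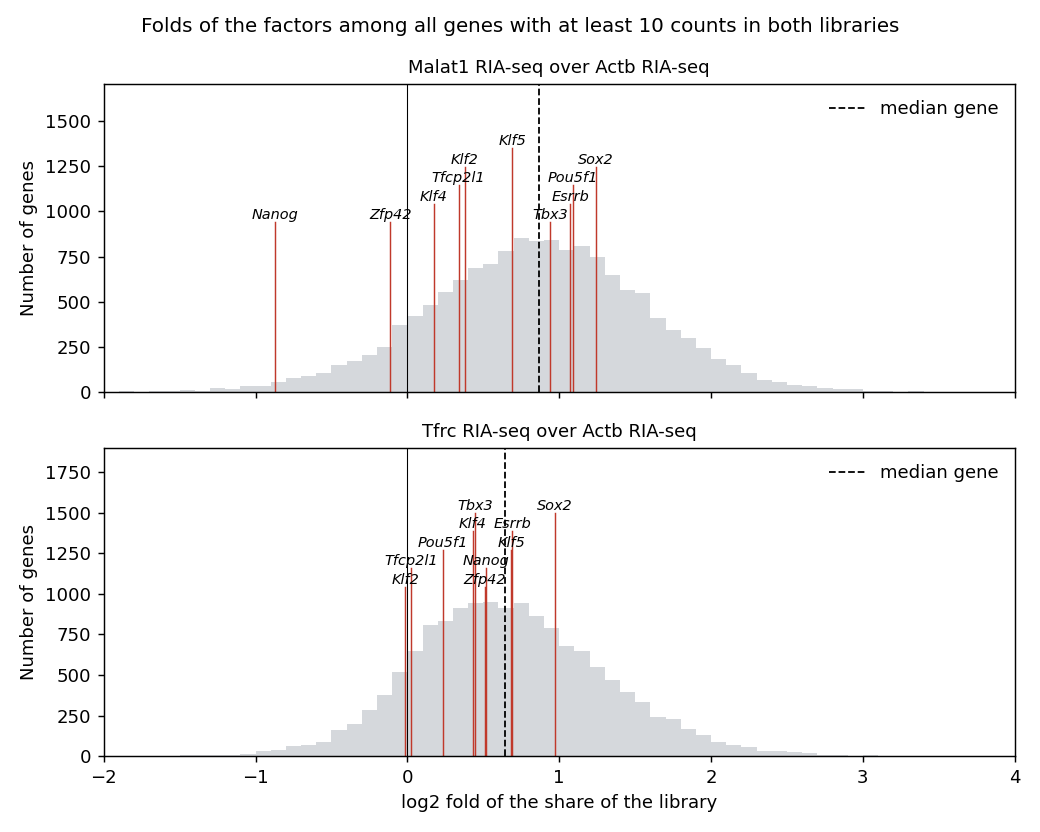
Distribution of the log2 fold of the share over all genes with 10 or more counts in the libraries compared, for Malat1 over Actb (top) and Tfrc over Actb (bottom), with the number of genes on the vertical axis. Red lines mark the 10 factors, whose heights only keep the names apart, the solid black line marks a log2 fold of 0, and the dashed line marks the median gene, at 0.86 and 0.64. Nanog lies in the left tail of the top panel, at −0.87, and inside the body of the lower one, at 0.52. The horizontal axis starts at a log2 fold of −2, and genes below that are not drawn.

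Set directly against each other, Malat1 and Tfrc RIA-seq held the 10 factors at a summed fold of 0.957 (0.945 to 0.969), with 1.15 for the median gene. Without Nanog the summed fold was 1.17, and the median of the 10 folds was 1.22. Below 1 were 3 of 10 factors, against 32.1% of genes, and 6 of 10 were above the median gene. Nanog had a fold of 0.382 (0.370 to 0.395), and 100 of 16430 genes had a lower one. Zfp42 followed at 0.650 (0.625 to 0.676) and Klf4 at 0.837 (0.790 to 0.887). Pou5f1 was at the other end, at 1.81 (1.75 to 1.87), above 93.1% of genes. No factor reached a fold of 2, so the count was 0 of 10 against 4.35% of genes, and Nanog alone was at 0.5 or less, against 1.92%. Nanog was also the only factor at 0.5 or less of the fold of the median gene, against 3.64% of genes. Klf5 had a fold of 1.01 (0.964 to 1.05), so its shares differed by less than counting error, and its fold was under 1 under the other scalings, at 0.872 by the median gene.

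Both folds over the control placed most factors inside the main cloud of genes. Of 2126 other genes that had 500 counts or more in every library, 2 lay within 0.25 on the log2 scale of Nanog and 24 of Zfp42, while the other 7 factors with such counts had between 82 (Pou5f1) and 310 (Tfcp2l1) genes within that distance. By the library total, one other gene, Gm12141, combined a Malat1 over Actb fold at or below that of Nanog (0.467) with a Tfrc over Actb fold above 1 (1.02). The name Gm12141 was taken after its values were seen. This rule used the value of Nanog as its limit. Scaled by the median gene, the Tfrc over Actb fold of Nanog itself was under 1, at 0.917. The summed factors, by contrast, had 43 of 2118 genes within 0.1, of which Txnl1 (1.31 and 1.37), Sept2 (1.30 and 1.37) and Gtf3c2 (1.30 and 1.36) were nearest. This likeness rests on 2 ratios that share their denominator.

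**Figure D3:**
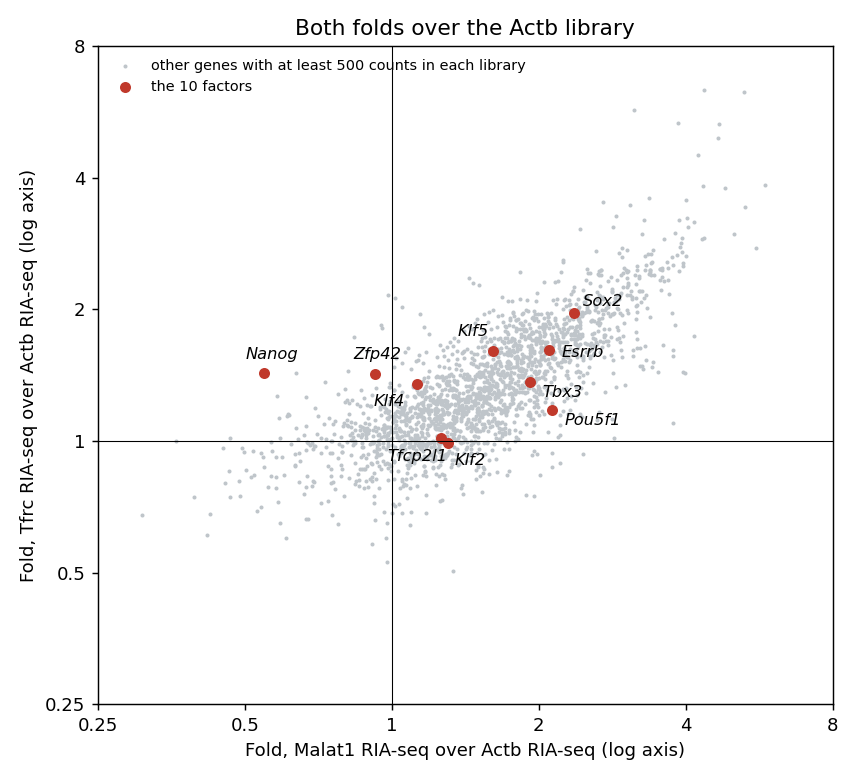
Fold of the share in Malat1 over Actb RIA-seq against Tfrc over Actb RIA-seq (both log axes) for the 10 factors in red and, in grey, for other genes that had 500 counts or more in every library, of which 7 lie outside the axes. Nanog lies at the upper left, away from the cloud, Zfp42 lies on its upper left edge, and the other factors lie within it.

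Each gene could have a count listed under its Ensembl identifier and another listed under the reference name Genome. What sets them apart is not given in the sources used here, but the Genome share of a gene's counts followed its introns. Over 489 genes of 1 exon with at least 100 counts in each library the median Genome share was 0%, 0.0719% and 0.0558% in Actb, Malat1 and Tfrc RIA-seq, and over 7143 genes with introns it was 10.3%, 23.9% and 21.0%. Sox2, which has no intron, had 8, 3 and 2 Genome counts, or 0.611%, 0.100% and 0.0558% of its counts. Esrrb, with 154465 nt of introns, had the highest Genome share of the 10 factors, 22.9% (21.2 to 24.6) for Actb, 57.2% (55.8 to 58.6) for Malat1 and 48.4% (47.1 to 49.8) for Tfrc. Across the 10 factors, Spearman's rho between intron length and Genome share was 0.83, 0.76 and 0.81 in the 3 libraries. This is a description over genes of the same libraries, without a test.

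The summed counts of the 10 factors had a Genome share of 4.92% (4.68 to 5.17) in the Actb library, 16.5% (16.2 to 16.9) in the Malat1 library and 10.8% (10.5 to 11) in the Tfrc library. The 9 factors with introns had a median share of 4.19%, 8.97% and 8.01%, and 2 of the 9, Esrrb and Klf5, were above the median gene in each library. Klf5, with 12994 nt of introns, had shares of 14.6%, 34.8% and 24.6%. Tfcp2l1 had a much longer intron sequence, 47954 nt, but shares of 4.19%, 8.13% and 8.01%, lower than those of Klf5 in every library. Pou5f1 had the lowest shares of the factors with introns in Malat1 and Tfrc RIA-seq, 1.55% (1.30 to 1.85) and 1.90% (1.59 to 2.27).

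**Figure D4:**
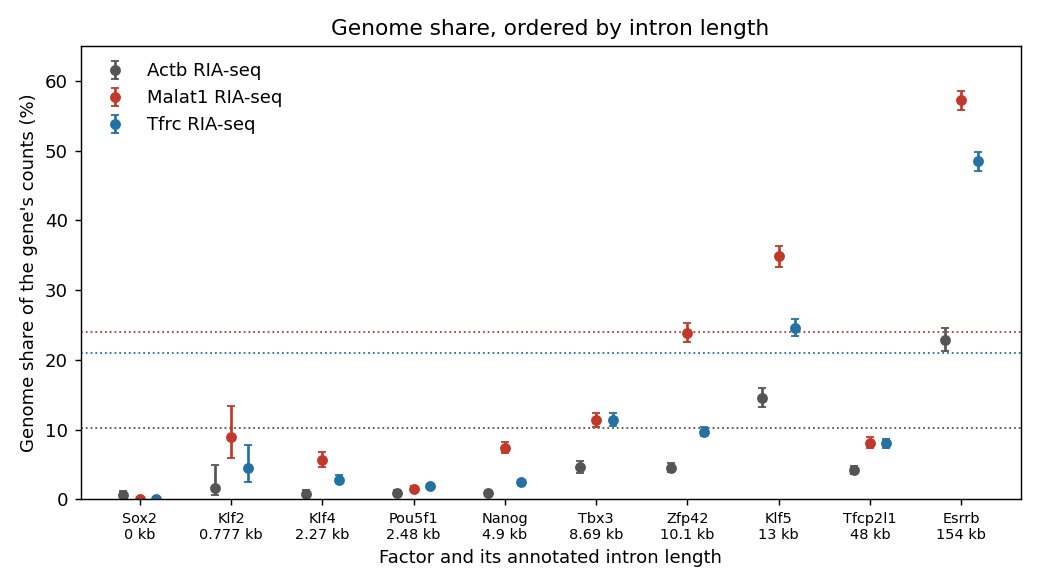
Genome share of the counts of each factor (%) in the 3 libraries, with 95% Wilson intervals, ordered by the annotated intron length given under each name. Dotted lines in the colours of the libraries mark the median over 7143 genes with introns. Esrrb and Klf5 lie above the line of each library, and Sox2, with no intron, lies near 0.

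Split by the kind of count, the lower Nanog share in Malat1 RIA-seq came from the Ensembl-ID counts. These were 7969 (Actb), 3945 (Malat1) and 15680 (Tfrc), a fold of 0.511 (0.492 to 0.531) in Malat1 over Actb RIA-seq. The Genome counts of Nanog were 74, 312 and 402, a fold of 4.35 (3.38 to 5.61) in the same comparison. The Genome fold of Nanog was above the 3.68 of the median gene while its Ensembl-ID fold was below the 1.41 of the median gene. Zfp42 showed the same split, with Ensembl-ID counts of 3981, 2847 and 7501 and Genome counts of 190, 892 and 804, and folds of 0.738 (0.704 to 0.775) and 4.85 (4.14 to 5.67). These were 2 of the 8 factors with 10 or more of both counts in the libraries compared, and 17.9% of 7496 genes had an Ensembl-ID fold below 1 with a Genome fold above 1. In Tfrc over Actb RIA-seq it was 1 of 8, Tfcp2l1 (0.977 and 1.94), against 18.4% of 7549 genes.

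The ratio of the Genome fold to the Ensembl-ID fold in Malat1 over Actb RIA-seq, which does not depend on library scaling, was 8.52 (6.59 to 11) for Nanog, 8.10 (4.44 to 14.8) for Klf4 and 6.57 (5.57 to 7.73) for Zfp42. The median gene had 2.51, and these 3 factors were above 99.0%, 98.6% and 96.7% of genes. The Klf4 value rests on 12 Genome counts in Actb RIA-seq. Pou5f1 was on the other side of the median gene, at 1.64 (1.13 to 2.37), as was Tfcp2l1, at 2.02 (1.70 to 2.41). In Tfrc over Actb RIA-seq the ratio was 2.76 (2.15 to 3.54) for Nanog, 3.98 (2.17 to 7.29) for Klf4 and 2.25 (1.91 to 2.64) for Zfp42, with 2.19 for the median gene. Nanog and Zfp42 were thus well above the median gene in the Malat1 comparison and close to it in the Tfrc comparison.

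**Figure D5:**
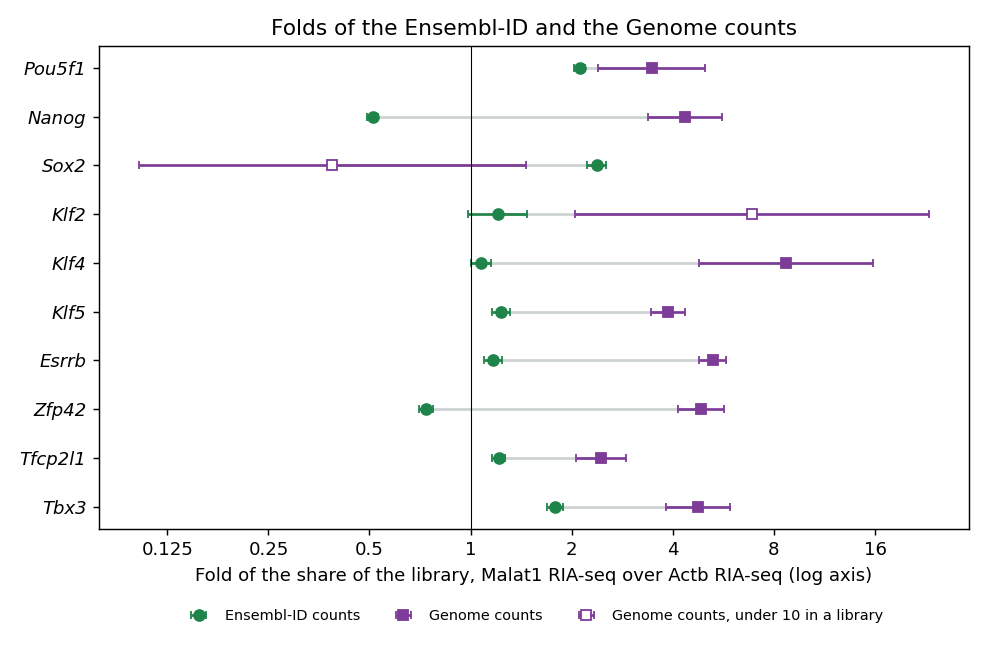
Fold of the share of the library in Malat1 over Actb RIA-seq (log axis) for the Ensembl-ID counts (green circles) and the Genome counts (purple squares) of each factor, with 95% intervals from the counts. Open squares mark factors with under 10 Genome counts in a library. The Genome fold lies above the Ensembl-ID fold for all factors but Sox2, and the vertical line at 1 separates both kinds of count for Nanog and Zfp42 and, in the opposite order, for Sox2. The interval of the Sox2 Genome fold includes 1.

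Compared per length, as the CPM of the Ensembl-ID counts per kb of merged exon, the levels ran in nearly the same order in Actb and Tfrc RIA-seq. In Actb RIA-seq the order was Nanog (342), Zfp42 (213), Pou5f1 (164), Klf5 (114), Klf4 (51.3), Sox2 (50.9), Tfcp2l1 (43.8), Tbx3 (36.5), Esrrb (29.5) and Klf2 (9.05). Klf4 and Sox2 did not differ beyond their exact Poisson intervals (48.8 to 53.8 and 48.2 to 53.7). In Tfrc RIA-seq the first 4 were the same, at 480, 286, 190 and 161, and Sox2 (100.3) stood above Klf4 (67.6), Tbx3 (46.2) above Tfcp2l1 (42.8), Esrrb at 31.8 and Klf2 at 8.71. In Malat1 RIA-seq Pou5f1 (346) came first, then Nanog (175), Zfp42 (157), Klf5 (140), Sox2 (121), Tbx3 (65.1), Klf4 (55.0), Tfcp2l1 (53.1), Esrrb (34.4) and Klf2 (10.9). There, Klf4 and Tfcp2l1 did not differ beyond their intervals. Klf2, the lowest, was still above 82.0% to 85.4% of protein-coding genes on this scale, and Nanog was above 99.2% to 99.8%.

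The other genes of the network and the markers of other cells gave the setting. Of 18 other regulators of pluripotency, 4 had a fold of 2 or more in Malat1 over Actb RIA-seq and 2 in Tfrc over Actb RIA-seq, with medians of 1.65 and 1.49, beside 42.1% and 28.6% of all genes and medians of 1.82 and 1.56. Nr5a2, a nuclear receptor that can replace Pou5f1 in reprogramming, was highest in both (3.64 and 2.66), and Trim28, a corepressor, was lowest in the first (0.954). Of 9 genes of LIF and STAT3 signalling, 3 and 0 had a fold of 2 or more, with medians of 1.64 and 1.51, both under the medians of all genes. The receptor subunits Lifr (2.84 and 1.95) and Il6st (2.52 and 1.85) were highest, and the feedback inhibitor Socs3 (1.28 and 1.14) was among the lowest. Neither list had a gene at 0.5 or less in these comparisons, against 0.954% and 0.388% of all genes, and 1 of the 18 regulators was below 1 in each, against 11.3% and 12.8%.

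Markers of other states were low. The 8 genes with counts on the primed-state list together summed to 10.5, 17.7 and 17.8 CPM in Actb, Malat1 and Tfrc RIA-seq. In each library 5 of the 9 on that list were under 1 CPM or not listed, among them Fgf5 with 0, 2 and 0 counts. The others were Otx2 (39, 52 and 66 counts), Zic2 (35, 57 and 73), Pou3f1 (14, 23 and 39) and Eomes (12, 34 and 63). Markers of differentiated lineages, 13 of 15 with counts, summed to 15.1, 28.3 and 29.2, and 10, 9 and 9 of the 15 were under 1 CPM or not listed. Of the fibroblast and feeder cell markers, 7 of 8 had counts, with a sum of 86.5, 93.2 and 96.5 CPM. Most of that sum was Vim (62.6, 58.4 and 61.3), which ES cells also express, and Thy1 had 177, 181 and 275 counts and Fbn1 52, 144 and 195. The collagens were lower, with 18, 15 and 26 counts for Col1a1, 1, 8 and 13 for Col1a2 and 0, 2 and 1 for Col3a1. The lowest of the 10 factors, Klf2, had 16.8 to 22.1 CPM, close to Thy1 at 17.0 to 18.9 CPM. The part of these markers in the differences between libraries was not tested.

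Relatives of the 10 factors spread widely. Their counts are to be read beside the 42.1% and 28.6% of all genes with a fold of 2 or more in Malat1 and in Tfrc over Actb RIA-seq, and their medians beside 1.82 and 1.56. In the KLF family 14 of 17 genes were tested in Malat1 over Actb RIA-seq and 4 had a fold of 2 or more, with a median of 1.63, Klf12 (4.44) and Klf7 (2.78) highest and Klf16 (0.795) lowest, beside Klf4 (1.13). The KLF median in Tfrc over Actb RIA-seq was 1.59 and 2 of 14 reached 2. Among SOX and POU genes 5 of 12 tested had a fold of 2 or more in Malat1 over Actb RIA-seq and 3 of 12 in Tfrc over Actb RIA-seq, with medians of 1.83 and 1.89. Pou2f2 was highest (4.70 and 5.24), though on 18 counts in the Actb library. Among relatives of Esrrb, Tbx3 and Tfcp2l1, 4 and 2 of 12 had a fold of 2 or more, with medians of 1.92 and 1.51. Tfcp2l1 itself was lowest in both, while Esrra was highest (2.82 and 2.75), on 34 counts in the Actb library. These 3 lists include the factors themselves.

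Finally, sequence shared with the pulled-down RNAs was looked for among the 30 pairs of a factor and a target. The exons of Tfcp2l1 and of Malat1 aligned over 149 nt at 86.6% identity, the only alignment over 100 nt, and the next, of Tbx3 with Actb, was 62 nt. Tfcp2l1, with its fold of 1.26 in Malat1 over Actb RIA-seq, was under the median gene. Nanog, Zfp42 and Pou5f1 shared at most 32 nt with any of the 3 targets. The oligonucleotide sequences were not used here, so their match to the factors was not tested.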

How the data were processed

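RIA-seq counts were analysed for the 10 factors in the Actb, Malat1 and Tfrc libraries, 1 per condition, grouped as the labels name the antisense oligonucleotides. The authors deposited raw read counts per gene, whole numbers without normalization, under the Ensembl identifier and under the name Genome. The submitters' processing notes name Bowtie 0.12.7 and the builds mm9 and NCBIM37. The counting rule, strand and handling of reads with several matches are not given in the sources used here. The cDNA was PCR amplified and no molecular identifiers are named, so intervals cover counting error only. The depth was 10078439 to 14553941 counts.

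Both counts of a gene were summed and divided by the library total. Distributions of folds took genes with 10 or more counts in the libraries compared. Intervals of folds were on the log scale, of shares Wilson, and of levels exact Poisson. The chi-square test, replaced by the exact test of Fisher for expected counts under 5, was adjusted by the Benjamini-Hochberg method over all genes. Positions came from the GENCODE annotation of NCBIM37, in which 23743 of 24080 identifiers and all 10 factors were found (Tfcp2l1 as Tcfcp2l1). Shared sequence was found with blastn (BLAST+ 2.17.0). Folds and intervals were tested on simulated counts, with Python 3.11.15, numpy 2.4.6, scipy 1.17.1 and pandas 2.3.3. The factors and lists were chosen with earlier results of these data known. Named genes were the 10 factors, up to 2 genes with the highest and lowest folds of each list, the 3 genes nearest to the summed factors, and genes that overlap or copy a factor. The alternatives changed the scaling, the kind of count, the pseudocount, the count minimum and the weight of single factors.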

Additional observations from a re-analysis of the deposited data

Results flagged for a closer look

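Nanog was flagged because its fold lay on opposite sides of 1 in both comparisons with the control, 0.546 in Malat1 over Actb RIA-seq and 1.43 in Tfrc over Actb RIA-seq. Zfp42 was flagged for the same reason, with 0.926 and 1.42. With 1 library per condition, the difference between these folds was not tested, and both share the Actb library. Scaled by the median gene, the Tfrc over Actb folds of both genes were under 1 as well, at 0.917 and 0.913, and their Malat1 over Actb folds were 0.300 and 0.509.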

How the results depend on the processing

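The summed fold of the 10 factors depended on the scaling. In Malat1 over Actb RIA-seq it was 1.32 by the library total, 0.724 by the median ratio, 0.736 by the 75th percentile and 0.824 by totals without the 10 most counted genes, and 0 factors reached a fold of 2 under these 3. In Tfrc over Actb RIA-seq it was 0.883, 0.886 and 0.980 under the same 3, and in Malat1 over Tfrc RIA-seq 0.830, 0.825 and 0.840. Each scaling divides all folds of a comparison by 1 number, which is the cause of these shifts. With Ensembl-ID counts alone the 3 summed folds were 1.16, 1.29 and 0.896, and with Genome counts alone 4.42, 3.02 and 1.47, with 9, 8 and 2 factors at a fold of 2 or more. Of the factors with 10 or more Genome counts it was 8 of 8, 7 of 8 and 1 of 9, beside 88.6%, 79.6% and 9.86% of all such genes. With each factor weighing the same, the fold was 1.41 in Malat1 over Actb RIA-seq and 1.03 in Malat1 over Tfrc RIA-seq, and without Nanog it was 1.59, 1.36 and 1.17. Genome counts put the fold of Sox2 in Malat1 over Actb RIA-seq at 0.387 (0.103 to 1.46), on 3 and 8 counts. They put that of Nanog in Malat1 over Tfrc RIA-seq at 1.12 (0.967 to 1.30). Both values are on the other side of 1, but both intervals include 1. Genome counts also put on the other side of 1 Zfp42 (1.60) and Klf4 (1.66) in Malat1 over Tfrc RIA-seq and Nanog (4.35) and Zfp42 (4.85) in Malat1 over Actb RIA-seq. In Tfrc over Actb RIA-seq they did so for Sox2 (0.179, 0.038 to 0.842, on 2 and 8 counts). Klf2 was at 2.62 there on 11 and 3 counts, with an interval that includes 1 (0.731 to 9.40). The Genome share of the factors was 2.94%, 8.55% and 6.25% as the median of the 10 factors and 3.39%, 10.7% and 6.96% without Esrrb. The Malat1 over Actb fold of Nanog was 0.511 with Ensembl-ID counts alone and 4.35 with Genome counts alone. The 3 other scalings lower every fold of that comparison, and a pseudocount of 1 is small beside these counts. Those alternatives could therefore not bring the fold of Nanog above 1. The share of all genes at a fold of 2 or more, 42.1%, 28.6% and 4.35% in the 3 comparisons, was 7.38%, 6.90% and 2.17% by the median ratio and 25.9%, 8.56% and 1.80% with a minimum of 500 counts, which was chosen after seeing the data. In the last comparison it was also 2.36% with a minimum of 50 counts and 9.13% with any count above 0. The cause of these shifts with the minimum was not tested. No paired analysis was possible because each condition had 1 library. The depth limits Klf2 most, and no setting replaces the missing replicates.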
